A study of Mus musculus with 20 samples.

Results

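Cerebellar granule neuron genes were followed through knock-in and wild-type mouse brains with 8 genes that mark or build these cells, Cbln1, Cbln3, Neurod1, Zic1, Zic2, Pax6, Fat2 and Calb2. Every probe set annotated to a single one of these symbols was taken, which gave 14 of the 22690 probe sets on the array. They belong to 7 genes, with 5 probe sets for Pax6, 3 for Cbln1, 2 for Neurod1 and 1 each for Cbln3, Zic1, Zic2 and Calb2. No probe set is listed under Fat2 in the annotation used here, so this atypical cadherin of granule cell axons was not analysed here. Of the 14, 12 passed a filter on dim probe sets. To pass, a probe set had to exceed the 40th percentile of an array, a limit with a median of 681 intensity units, on at least 2 arrays. The remaining 2, both for Pax6, are given as levels.

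Granule neurons are the small excitatory cells of the inner cerebellar cortex and the most numerous neurons of the mammalian brain. They descend from precursors of the rhombic lip, where Zic1, Zic2 and Pax6 act as transcription factors, and Neurod1 is a basic helix-loop-helix factor needed for their survival and differentiation. Mature granule cells send parallel fibres onto Purkinje cells, and the secreted cerebellin Cbln1 bridges neurexin on the fibre with the glutamate receptor GluD2 on the Purkinje cell. Cbln3 is a cerebellin that assembles with Cbln1, and Calb2 encodes calretinin, a calcium buffer of granule cells that is also found in unipolar brush cells and in forebrain interneurons.

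Total RNA of knock-in mice and of their wild-type counterparts was measured on 20 single-channel oligonucleotide arrays, from cerebellum and forebrain, at 4 weeks and at a later age. The 8 groups hold 3 arrays each at 4 weeks and 2 arrays each at the later age: knock-in and wild-type cerebellum, and knock-in and wild-type forebrain, each at both ages. Sample descriptions give the later age as 11 weeks, the name used here, and titles as 12 weeks. The labels name neither the knocked-in allele nor the strain of either genotype, and no statement says that the arrays hold RNA of separate animals, so the spread behind the p-values may be technical. Whole tissue was used, so fewer cells of a type and less RNA per cell cannot be told apart. Replicate numbers here name arrays within a group.

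The labels conflict on region. In 7 of the 10 forebrain arrays (knock-in at both ages and wild type at 11 weeks) the source names cerebellum, and in 1 of them, knock-in forebrain 4 weeks replicate 3, the description does too. A short code in each title decided the region. Pcp2, a gene of Purkinje cells, checked this grouping. Its probe set 1419085_at read 38010 to 55244 on the 10 cerebellar arrays and 49.96 to 579 on the 10 forebrain arrays, below the filter limit on each of those 10. Gabra6, the GABA-A receptor subunit that defines granule cells, was likewise below the limit on all 10 forebrain arrays in both of its probe sets. Array medians were 979 to 1180, and the 3'/5' ratios of GAPDH and actin, signs of RNA quality, were 0.744 to 0.903 and 0.934 to 1.23. Precision is limited by the number of arrays.

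RefSeq entries of promoters were matched for 5 of the 8 genes by symbol. Those of Cbln3, Neurod1 and Zic1 are shown as examples, and Cbln1, Zic2 and Calb2 had no entry. Each run is the 250 bases before the annotated start on the GRCm38.p6 assembly, read 5′ to 3′ on the gene's own strand. Capitals mark a match to an E-box of the kinds bound by Neurod and Atoh factors (CAGATG, its relative CAGCTG, or the palindrome CATATG) or to CCTGCTG, a core of Zic sites, searched on both strands.
Cbln3: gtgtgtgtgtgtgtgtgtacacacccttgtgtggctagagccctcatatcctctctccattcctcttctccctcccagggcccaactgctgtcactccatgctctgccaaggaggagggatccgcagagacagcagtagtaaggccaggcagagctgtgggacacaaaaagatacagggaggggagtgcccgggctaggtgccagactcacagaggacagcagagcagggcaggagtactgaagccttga
Neurod1: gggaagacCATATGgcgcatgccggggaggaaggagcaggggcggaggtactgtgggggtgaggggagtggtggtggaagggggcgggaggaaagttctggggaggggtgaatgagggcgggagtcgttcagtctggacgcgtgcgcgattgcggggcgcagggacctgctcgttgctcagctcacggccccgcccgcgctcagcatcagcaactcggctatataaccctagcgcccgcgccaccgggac
Zic1: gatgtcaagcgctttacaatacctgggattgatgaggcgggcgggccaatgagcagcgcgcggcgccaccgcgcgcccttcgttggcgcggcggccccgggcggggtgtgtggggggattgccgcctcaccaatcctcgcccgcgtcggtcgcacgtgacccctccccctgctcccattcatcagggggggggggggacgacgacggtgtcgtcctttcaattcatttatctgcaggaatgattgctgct
The Cbln3 run lies at chr14:55884257-55884506, that of Neurod1 at chr2:79456637-79456886 and that of Zic1 at chr9:91365769-91366018, all on the minus strand. The only match is the CATATG in the Neurod1 run, at base -242 from the start. Of 32851 promoters of this length, 28.1% hold at least 1 of the 3 E-boxes, 3.46% hold CATATG and 8.44% hold CCTGCTG. GC content was 57.6% in the Cbln3 run, 67.6% in the Neurod1 run and 66.0% in the Zic1 run. The 2 runs of Pax6 and that of Fat2 hold no match.

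In both genotypes the granule neuron genes were far higher in cerebellum than in forebrain. All 12 tested probe sets were called higher in cerebellum in knock-in mice and all 12 in wild-type mice (limma, Benjamini-Hochberg adjusted p at most 2.51e-06 and 4.89e-06, against 24.5% and 26.6% of the 15627 probe sets tested). Called means an adjusted p under 0.05 over all probe sets tested. The genes were chosen as cerebellar genes, so these counts describe the choice. On each of the 12, every one of the 10 cerebellar arrays lay above every one of the 10 forebrain arrays. The median difference, cerebellum minus forebrain in log2(intensity + 16), was 3.87 among knock-in mice and 4.15 among wild-type mice, against 0.02 and 0.04 over all probe sets tested.

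**Figure D1:**
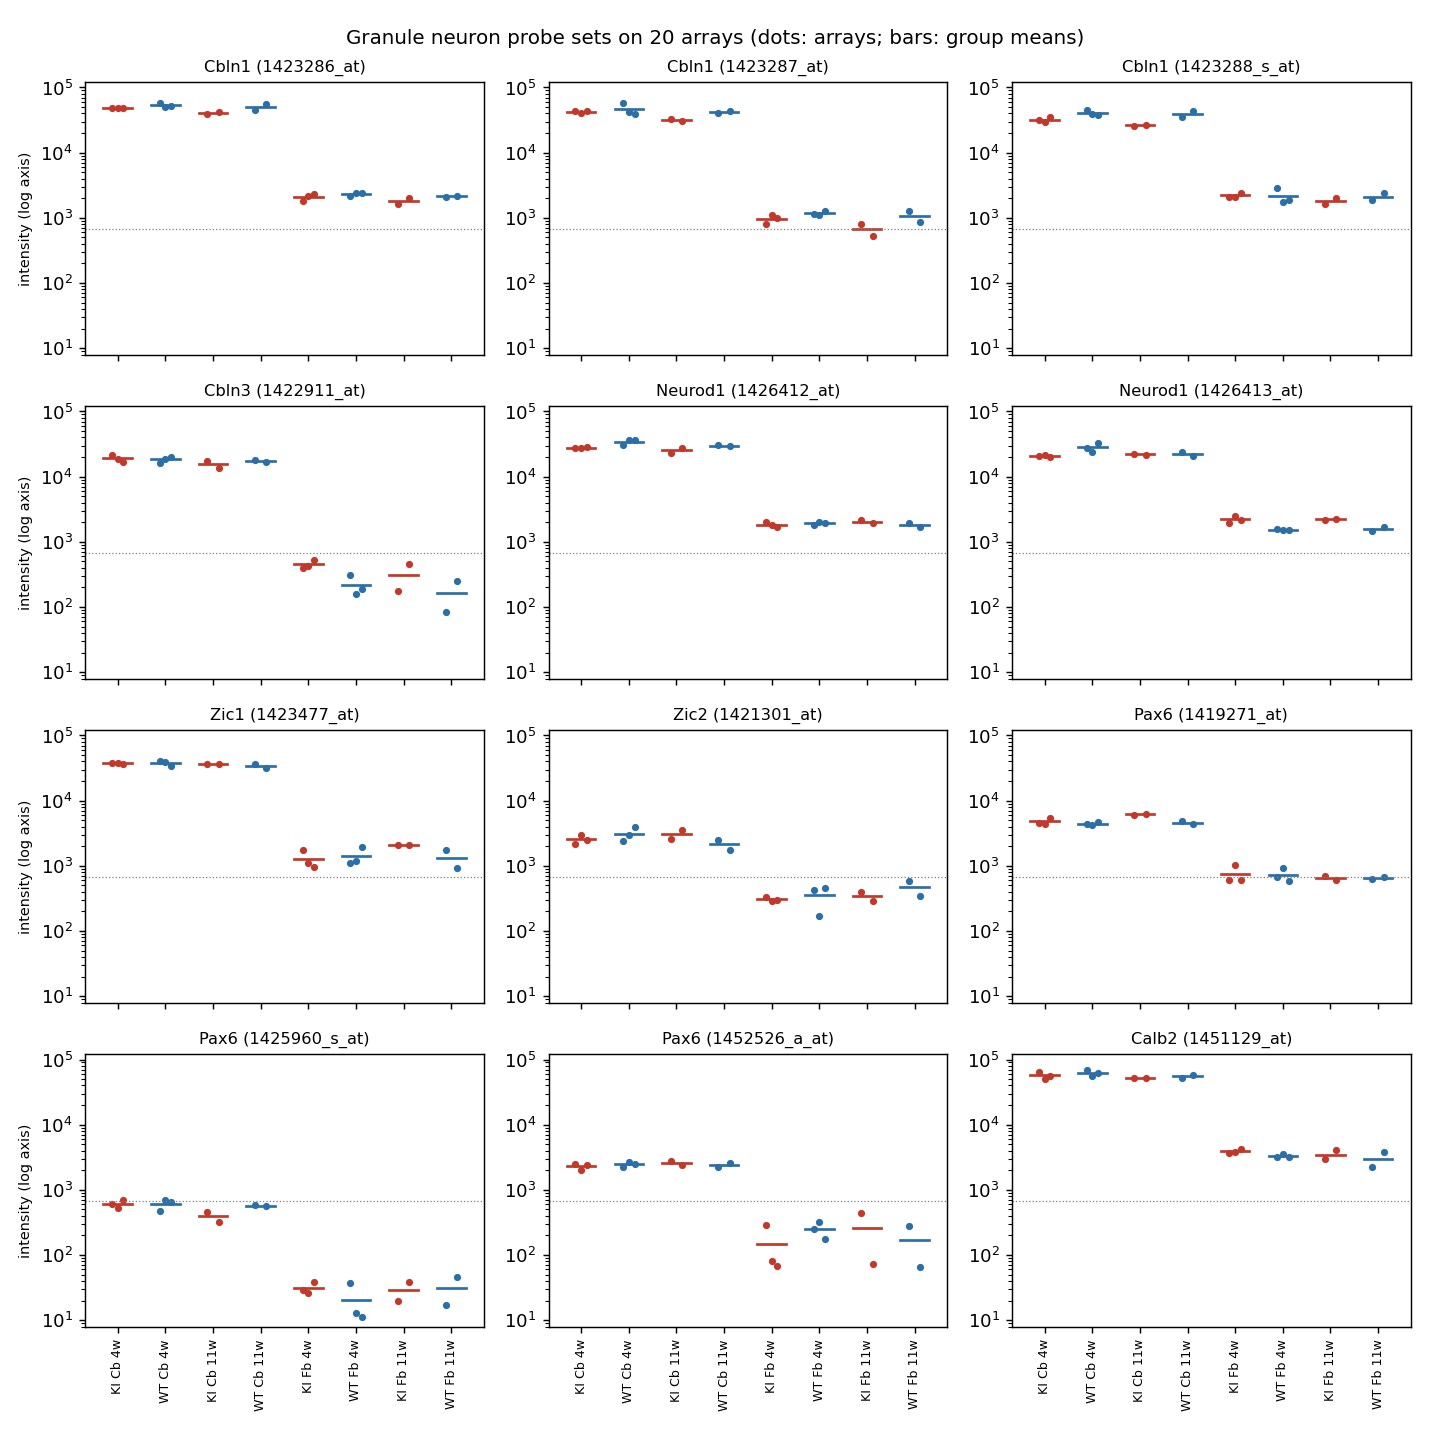
Intensity (log axis) of the 12 tested granule neuron probe sets on each of the 20 arrays, by group, with knock-in (KI, red) and wild type (WT, blue) of cerebellum (Cb) and forebrain (Fb) at 4 and 11 weeks (4w, 11w). Points are arrays, bars are group means and the dotted line is the median filter limit of 681. On each probe set all 10 cerebellar points lie above all 10 forebrain points, and Cbln3, Zic2 and 2 Pax6 probe sets stay below the limit in forebrain.

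Both secreted cerebellins were far above their forebrain level in cerebellum. Cbln1 probe set 1423286_at had 38616 to 57724 (median 48727) on cerebellar arrays and 1626 to 2423 (median 2155) on forebrain arrays, which is 22.4-fold in knock-in and 23.0-fold in wild-type mice. The other Cbln1 probe sets gave differences of 5.51 ± 0.14 among knock-in and 5.29 ± 0.14 among wild-type mice (1423287_at), and of 3.85 ± 0.13 and 4.22 ± 0.13 in knock-in and wild-type mice (1423288_s_at; errors of differences are standard errors of the model). Forebrain Cbln1 was above the filter limit on all 10 arrays in 2 of its probe sets and on 9 in 1423287_at, so a low Cbln1 signal was measured outside the cerebellum. Cbln3 had 13372 to 21413 (median 17866) on cerebellar arrays and 83.5 to 530 (median 278) on forebrain arrays. It was below the limit on all 10 forebrain arrays and was therefore at least 23.1-fold higher in cerebellum in knock-in mice and at least 27.3-fold higher in wild-type mice, with forebrain values raised to the limit of their array.

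The transcription factors spanned a wide range of differences. Neurod1 probe set 1426412_at had 23472 to 36146 (median 29018) on cerebellar and 1692 to 2134 (median 1930) on forebrain arrays, 13.7-fold in knock-in and 17.0-fold in wild-type mice. Neurod1 probe set 1426413_at had 19789 to 32641 (median 21962) in cerebellum and 1462 to 2483 (median 1828) in forebrain, 9.57-fold in knock-in and 15.9-fold in wild-type mice. Zic1 stood at 32117 to 40790 (median 36895) in cerebellum and at 917 to 2100 (median 1483) in forebrain, 22.9-fold and 26.8-fold in knock-in and wild-type mice. Forebrain Neurod1 and Zic1 were above the limit on all 10 arrays. Zic2, with 1772 to 4013 (median 2554) in cerebellum and 173 to 589 (median 336) in forebrain, was below it on all 10, and was at least 3.79-fold higher in cerebellum in knock-in mice and at least 3.89-fold in wild-type mice.

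The 5 Pax6 probe sets did not behave alike. The one with the highest mean, 1419271_at, had 4277 to 6304 (median 4587) in cerebellum and 585 to 1019 (median 644) in forebrain, 7.81-fold for knock-in and 6.53-fold for wild-type mice. Of the forebrain arrays, 1 of 5 knock-in and 3 of 5 wild-type ones were above the limit, and with the others raised to it the folds were at least 7.04 and 6.40. Probe set 1452526_a_at had 2011 to 2755 in cerebellum and 65.7 to 441 in forebrain, at least 3.33-fold and 3.75-fold in knock-in and wild-type mice. Probe set 1425960_s_at was above the limit on 2 arrays in all, both of wild-type cerebellum, with 324 to 709 in cerebellum and 11.0 to 45.9 in forebrain, so no bound above 1 can be given. The 2 untested ones overlapped between regions, at 256 to 424 in cerebellum and 183 to 613 in forebrain for 1437816_at and at 401 to 856 and 281 to 628 for 1456342_at. Just inside the filter lay 1425960_s_at, above the limit on 2 arrays, and just outside it 1456342_at, above on 1.

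Calb2, the calretinin gene, had 50464 to 68372 (median 55721) in cerebellum and 2270 to 4251 (median 3563) in forebrain, 14.8-fold in knock-in and 18.8-fold in wild-type mice. As the anchors outside the list, Gabra6 was at least 53.5-fold higher in cerebellum in knock-in and at least 62.4-fold in wild-type mice (1417121_at), and Pcp2 at least 62.6-fold and 75.8-fold (1419085_at). These are their brightest probe sets. The bounds were 36.2-fold and 44.0-fold for Gabra6 1451706_a_at and 44.9-fold and 60.5-fold for Pcp2 1419084_a_at. The dim Pcp2 1424944_at had bounds of only 1.11-fold and 1.39-fold.

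**Figure D2:**
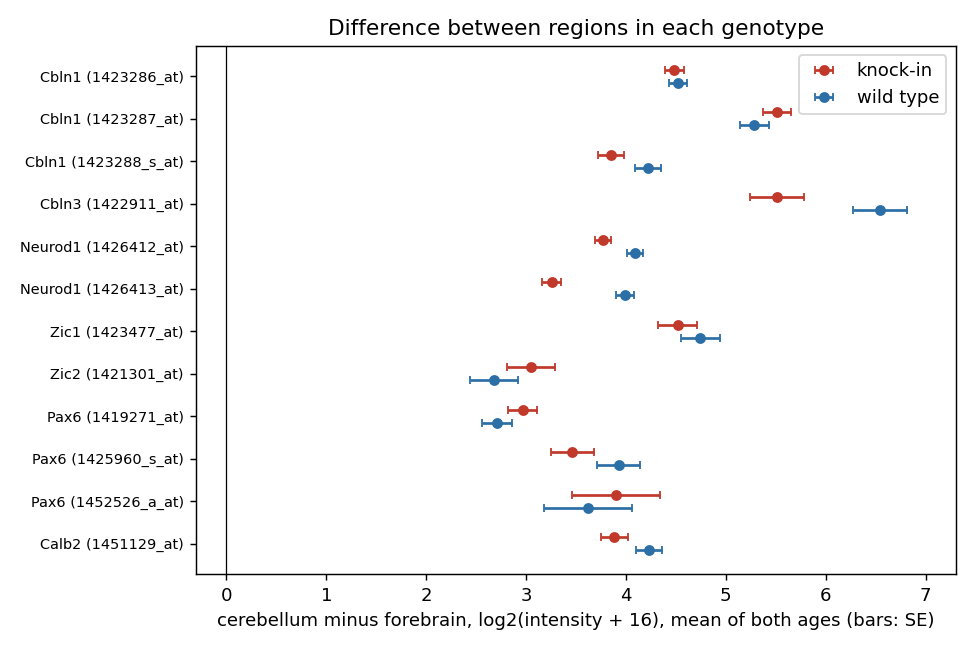
Difference between cerebellum and forebrain of the 12 tested granule neuron probe sets, in log2(intensity + 16), as the mean of both ages, in knock-in (red) and wild-type (blue) mice; bars are standard errors of the model. All values lie between 2.68 and 6.55, and those of Cbln3, Zic2 and 2 Pax6 probe sets rest on forebrain values below the filter limit. Cbln3 is plotted at 5.51 for knock-in and 6.55 for wild-type mice, where bounds at the limit are 23.1-fold and 27.3-fold.

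Between genotypes, no member probe set passed the test in cerebellum at either age or in the mean of both ages. Calls by limma were 0 of 12 at 4 weeks, at 11 weeks and in the mean, against 0.0512%, 0.346% and 3.35% of all probe sets tested, with 2, 2 and 4 of the 12 at an unadjusted p under 0.05. The smallest adjusted p values were 0.139, 0.207 and 0.0669. In simulated data, a log2 change of 0.5 was recovered for 20%, 10% and 45% of changed probe sets in these comparisons. The counts of 0 therefore do not show that changes of this size were absent. The median difference, knock-in minus wild type, was -0.11 at 4 weeks, -0.14 at 11 weeks and -0.17 in the mean, against 0.03, 0.02 and 0.02 over all probe sets tested. These medians count every probe set of a gene. With a gene read from its brightest kept probe set, the medians over 7 genes were -0.12, -0.09 and -0.07. In the mean, 8 of the 12 values were below 0 and 4 above. Among the 8, Pax6 1425960_s_at passed the filter through 2 wild-type cerebellar arrays alone, which favours a value below 0, and the medians over the 12 include it.

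Cbln1 and Neurod1 held 5 of these 8, and the other 3 were 1 probe set each of Cbln3, Calb2 and Pax6. Cbln1 probe set 1423288_s_at read 31790, 29848 and 35138 in knock-in cerebellum at 4 weeks, against 44839, 39111 and 38147 in wild-type cerebellum. At 11 weeks it read 25607 and 26811 in knock-in and 34887 and 43385 in wild-type cerebellum. The genotypes did not overlap at either age, and the mean difference was -0.45 ± 0.13 (adjusted p = 0.0669, limma), below 0 at both ages, with -0.33 at 4 weeks and -0.57 at 11 weeks. The adjusted p was 0.0375 with a variance trend and robust moderation and 0.0491 with the cerebellar arrays fitted alone, so the call depends on how the spread is estimated.

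Cbln1 probe set 1423286_at read 48431, 47972 and 49023 in knock-in cerebellum at 4 weeks, against 57724, 50043 and 51276 in wild type. At 11 weeks the values were 38616 and 41399 in knock-in and 45138 and 55455 in wild type. These too did not overlap at either age, with a mean difference of -0.22 ± 0.09 (adjusted p = 0.173, limma). Probe set 1423287_at read 43289, 40726 and 43388 in knock-in and 56874, 42673 and 39141 in wild-type cerebellum at 4 weeks, where the genotypes overlapped. At 11 weeks it had 32947 and 31014 in knock-in and 40676 and 44093 in wild type, without overlap, and its mean difference was -0.25 ± 0.14 (adjusted p = 0.31, limma). All 3 Cbln1 probe sets thus had their lowest cerebellar group mean in knock-in mice at 11 weeks, with 40008 ± 1968 against 50296 ± 7295 in wild type for 1423286_at (SD, n = 2).

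Neurod1 probe set 1426412_at read 27553, 27856 and 28574 in knock-in cerebellum at 4 weeks, against 31023, 35995 and 36146 in wild type. At 11 weeks it read 23472 and 27316 in knock-in and 30182 and 29462 in wild type. The genotypes did not overlap at either age, and the mean difference was -0.26 ± 0.08 (adjusted p = 0.0751, limma). Probe set 1426413_at read 20519, 21266 and 19789 in knock-in and 27845, 23903 and 32641 in wild type at 4 weeks, without overlap, a difference of -0.44 ± 0.12 (adjusted p = 0.139, limma). At 11 weeks the same probe set had 22531 and 21393 in knock-in and 23963 and 20709 in wild type, which overlapped, with a difference of -0.02. The change of its genotype difference between the ages was 0.42 ± 0.19 (adjusted p = 0.863, limma).

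In all, 3 of the 12 probe sets were lower in knock-in cerebellum without overlap at both ages, 1423286_at and 1423288_s_at of Cbln1 and 1426412_at of Neurod1, where 3.87% of all probe sets tested had such a pattern downward. None had it upward, where 5.78% of all probe sets did.

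**Figure D3:**
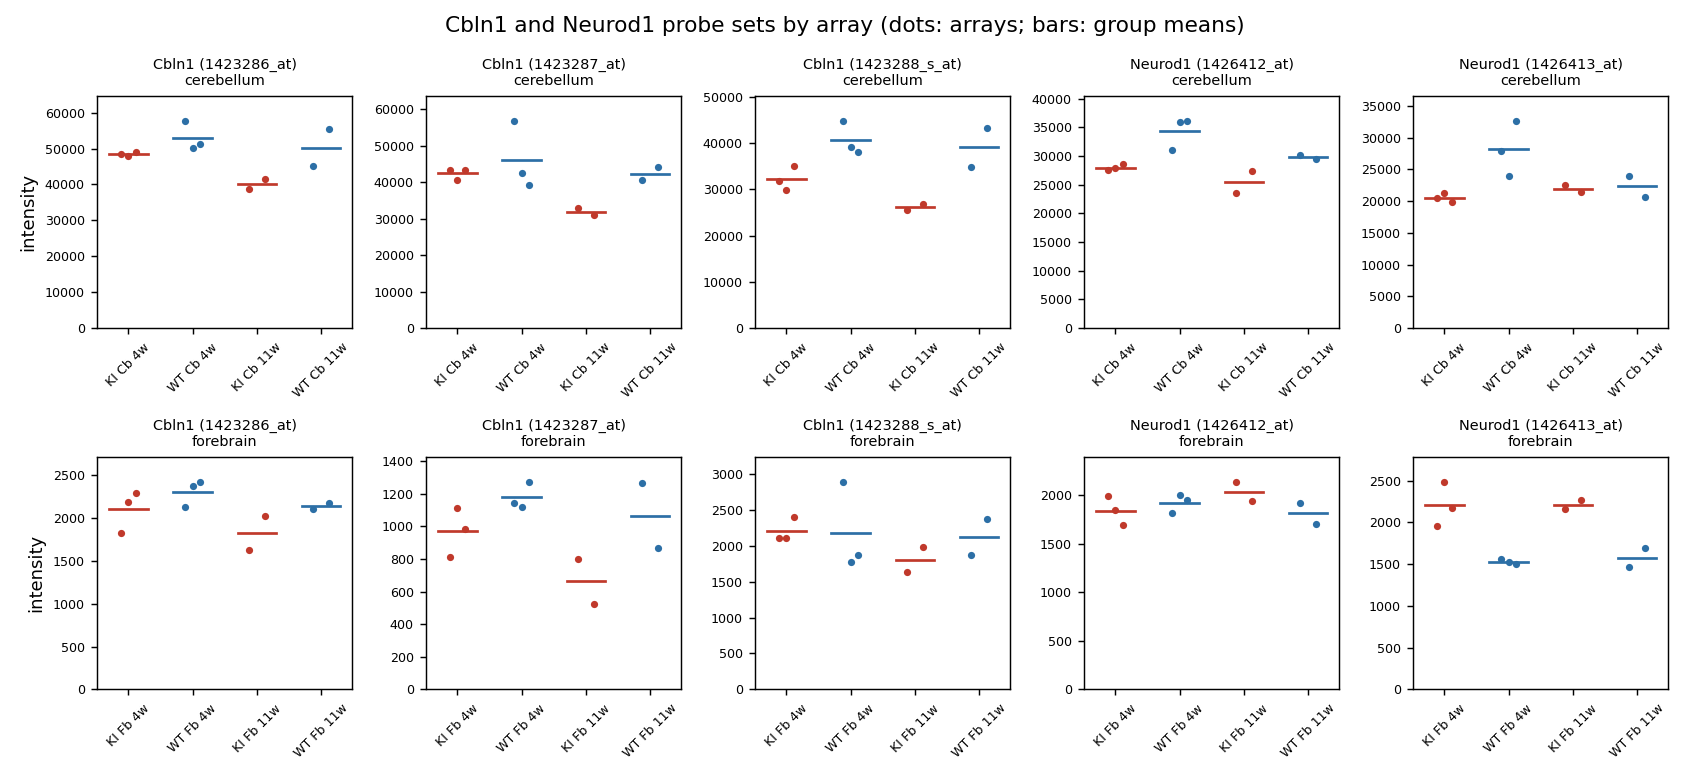
Intensity of the 3 Cbln1 and 2 Neurod1 probe sets on each array, in cerebellum (upper row) and forebrain (lower row), for knock-in (KI, red) and wild type (WT, blue) at 4 and 11 weeks; points are arrays, bars are group means and every axis starts at 0. In cerebellum the knock-in points of 1423286_at, 1423288_s_at and 1426412_at lie below the wild-type points at both ages, and in forebrain those of 1426413_at lie above them.

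The members other than Cbln1 and Neurod1 gave no call in cerebellum either. Cbln3, the partner of Cbln1, read 21413, 18859 and 16881 in knock-in and 16423, 18801 and 19966 in wild-type cerebellum at 4 weeks, and 17428 and 13372 against 18303 and 16629 at 11 weeks. Its mean difference was -0.07 ± 0.27. Zic1 had 38520, 37799 and 36928 in knock-in and 40790, 38956 and 33764 in wild type at 4 weeks, with a mean difference of 0.05 ± 0.19 over both ages. Zic2, a closely related zinc finger factor, had -0.27 ± 0.31 at 4 weeks and 0.54 ± 0.38 at 11 weeks. At 11 weeks its 2597 and 3589 in knock-in lay above the 2486 and 1772 in wild type, and at 4 weeks the groups overlapped.

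Pax6 probe set 1419271_at read 4491, 4421 and 5486 in knock-in and 4315, 4277 and 4684 in wild-type cerebellum at 4 weeks. At 11 weeks it read 6098 and 6304 in knock-in and 4869 and 4365 in wild type, without overlap, a difference of 0.43 ± 0.23 (adjusted p = 0.407, limma). Its mean difference was 0.27 ± 0.15, and that of 1452526_a_at was 0.00 ± 0.44. Probe set 1425960_s_at had -0.26 ± 0.22, but it passed the filter through 2 wild-type cerebellar arrays alone, which favours a value below 0. Calb2 read 64631, 50464 and 55935 in knock-in and 68372, 55507 and 62255 in wild type at 4 weeks, and 51494 and 52511 against 52494 and 58685 at 11 weeks. Its mean difference was -0.11 ± 0.13 (adjusted p = 0.68, limma), with overlap at 4 weeks and at 11 weeks.

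Markers of other cells were measured beside these values. Over 13 probe sets of 7 Purkinje cell genes the intensities added up to 295644 to 311365 in knock-in and 329249 to 341142 in wild-type cerebellum at 4 weeks, and 264402 to 313508 against 326121 to 342808 at 11 weeks, lower in knock-in without overlap at both ages. Of these 7 genes, 0 were called by limma in the mean of both ages (2 at an unadjusted p under 0.05), at a median of -0.11, against 3.35% of all probe sets tested. The brightest Pcp2 probe set, 1419085_at, had -0.10 ± 0.35. Mean log2 levels in knock-in and wild-type cerebellum were 15.02 and 15.28 for Pcp2 1419084_a_at and 9.68 and 9.84 for 1424944_at. The sum over 8 probe sets of 5 granule cell receptor and channel genes was 122122 to 134101 in knock-in and 143068 to 158389 in wild type at 4 weeks, and 125465 to 135430 against 139446 to 142272 at 11 weeks, again without overlap. Other sums were apart at 1 age. At 4 weeks microglia markers were at 20133 to 22364 in knock-in and 19440 to 19778 in wild-type cerebellum, and choroid plexus markers at 104694 to 203430 and 203717 to 217487. Oligodendrocyte markers were at 363585 to 370024 and 404673 to 406146 at 11 weeks. The lists of further granule-enriched genes (4 weeks), unipolar brush cells, dentate granule neurons, and olfactory bulb and thalamus (11 weeks) were also lower in knock-in cerebellum without overlap. At 11 weeks this rests on 2 arrays per group, and the share over all probe sets at a single age was not taken. These lists are not separate. The dentate list shares a gene with the Purkinje list, and the unipolar brush cell list shares a gene with the olfactory bulb and thalamus list. The GAPDH 3'/5' ratio was 0.848 to 0.903 in knock-in and 0.823 to 0.842 in wild-type cerebellum at 11 weeks and overlapped at 4 weeks. The part of these shifts in the Cbln1 and Neurod1 values was not tested.

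In forebrain, where the 12 probe sets read lower than in cerebellum, 3 were called in the mean of both ages. In knock-in mice 2 were higher and 1 lower, against 13.5% of all probe sets tested (8.36% higher and 5.13% lower). Of the 12, 4 were below the filter limit on every forebrain array (Cbln3, Zic2 and 2 of Pax6) and passed the filter through cerebellum, among them 1 of the 2 called higher, Cbln3. The other 8 held 1 call higher and 1 lower. The count at 4 weeks was 1, against 7.37%, and at 11 weeks 0, against 0.864%, with 4 at an unadjusted p under 0.05 (limma). The median over the 12 was 0.03 in the mean of both ages, against 0.04 over all probe sets tested. With a gene read from its brightest kept probe set, 1 of 7 genes was called, Cbln3, at a median of 0.05.

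Neurod1 probe set 1426413_at was higher in knock-in forebrain. It read 1960, 2483 and 2170 in knock-in and 1566, 1529 and 1501 in wild-type forebrain at 4 weeks, and 2160 and 2264 against 1462 and 1695 at 11 weeks. Knock-in arrays lay above wild-type arrays at both ages, a difference of 0.51 ± 0.12 at 4 weeks (adjusted p = 0.0204, limma), 0.49 ± 0.15 at 11 weeks (adjusted p = 0.132) and 0.50 ± 0.09 in the mean (adjusted p = 0.00512). At 4 weeks the call did not hold when replicate 2 of knock-in was left out (0.43, adjusted p = 0.0868), or replicate 2 or 3 of wild type (adjusted p = 0.0613 and 0.0534). The call in the mean was kept with each of the 10 forebrain arrays left out, and was 0.50 (adjusted p = 0.00867) without the array whose description names cerebellum.

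The other Neurod1 probe set did not show this. Probe set 1426412_at read 1986, 1843 and 1692 in knock-in and 1811, 1998 and 1946 in wild-type forebrain at 4 weeks, and 2134 and 1939 against 1921 and 1705 at 11 weeks. The genotypes overlapped at 4 weeks and not at 11 weeks, and the mean difference was 0.05 ± 0.08 (adjusted p = 0.693, limma). The 2 probe sets of Neurod1 therefore disagree in forebrain, and a change of the gene as a whole cannot be stated. For comparison, Pcp2 probe set 1419085_at, below the limit on all forebrain arrays, had a forebrain difference of 0.71 ± 0.35 (adjusted p = 0.184), and Gabra6 had 1.21 ± 0.32 in 1451706_a_at (adjusted p = 0.0228) and -0.54 ± 0.47 in 1417121_at (adjusted p = 0.467), both below the limit in forebrain too.

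Cbln3 read 393, 430 and 530 in knock-in and 306, 159 and 188 in wild-type forebrain at 4 weeks, and 175 and 454 against 83.5 and 250 at 11 weeks. The genotypes were apart at 4 weeks and overlapped at 11 weeks, and all 10 values lay below the filter limit. The mean difference was 0.96 ± 0.27 (adjusted p = 0.0296, limma), a size that depends on the offset of 16. It was not called without wild-type 11 weeks replicate 1 (0.61, adjusted p = 0.157) or knock-in 11 weeks replicate 2 (0.63, adjusted p = 0.159), nor without knock-in 4 weeks replicate 3 (adjusted p = 0.052), whose description names cerebellum, or wild-type 4 weeks replicate 2 or 3 (adjusted p = 0.0623 and 0.053).

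Cbln1 probe set 1423287_at read 810, 1114 and 986 in knock-in and 1144, 1118 and 1272 in wild-type forebrain at 4 weeks, and 800 and 525 against 1267 and 866 at 11 weeks. Knock-in lay below wild type at both ages, a mean difference of -0.48 ± 0.14 (adjusted p = 0.0354, limma). The call was lost without knock-in 4 weeks replicate 1 (adjusted p = 0.0756), wild-type 4 weeks replicate 2 or 3 (adjusted p = 0.0515 and 0.0648), knock-in 11 weeks replicate 2 (-0.33, adjusted p = 0.181) or wild-type 11 weeks replicate 1 (-0.35, adjusted p = 0.175). Without the array whose description names cerebellum it was -0.49 (adjusted p = 0.0486). The other Cbln1 probe sets had -0.19 ± 0.09 (1423286_at, adjusted p = 0.187) and -0.09 ± 0.13 (1423288_s_at, adjusted p = 0.693), and were not called.

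No other member was called in forebrain. Zic1 read 1763, 1116 and 952 in knock-in and 1091, 1206 and 1940 in wild type at 4 weeks, with overlap. At 11 weeks it read 2064 and 2100 in knock-in and 1759 and 917 in wild type, a difference of 0.71 ± 0.30 (adjusted p = 0.27, limma) without overlap. Calb2, which forebrain interneurons also make, read 3628, 3837 and 4251 in knock-in and 3157, 3497 and 3231 in wild type at 4 weeks, and 2938 and 4017 against 2270 and 3749 at 11 weeks, a mean difference of 0.24 ± 0.13 (adjusted p = 0.234). It was called without wild-type 11 weeks replicate 2 (0.42, adjusted p = 0.0399). Of the 12 probe sets, 1 was higher in knock-in forebrain without overlap at both ages, 1426413_at of Neurod1, and 1 lower, 1423287_at of Cbln1, against 8.47% and 6.29% of all probe sets tested.

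Forebrain lists of other cells were measured beside these calls. The sum over 10 probe sets of 8 interneuron genes was 58458 to 64690 in knock-in and 69282 to 79253 in wild-type forebrain at 4 weeks, and 53932 to 63253 against 68303 to 73535 at 11 weeks. Pyramidal neuron genes, 7 probe sets of 6 genes, summed to 19288 to 21782 in knock-in and 24337 to 27038 in wild type at 4 weeks and to 17948 to 22281 against 28108 to 30230 at 11 weeks. Both sums were lower in knock-in forebrain without overlap at both ages, a pattern that 6.29% of the single probe sets tested had. So were the Purkinje cell list, at 48730 to 55900 against 61384 to 68700 at 4 weeks and 45185 to 47953 against 56225 to 58207 at 11 weeks, and the granule cell receptor and channel list. Such sums weigh bright probe sets most. In the mean of both ages limma called 8.36% of all probe sets tested higher and 5.13% lower in knock-in forebrain. It called 2 of 7 tested interneuron genes lower and 0 of 6 pyramidal neuron genes. Of 7 Purkinje cell genes it called 1 higher and 1 lower, at a median of -0.09. The microglia list was higher in knock-in at 4 weeks, at 52878 to 57702 against 45204 to 50722, and lower at 11 weeks, at 43849 to 47519 against 48864 to 51371. Sums of the astrocyte, oligodendrocyte, unipolar brush cell and further granule-enriched lists were lower in knock-in without overlap at 11 weeks alone, with 2 arrays per group. At 4 weeks alone the dentate granule neuron list was lower and the precursor list higher. A list of olfactory bulb and thalamus genes summed to 4553 to 5133 in knock-in and 3054 to 3629 in wild type at 4 weeks, and overlapped at 11 weeks. The GAPDH 3'/5' ratio was 0.827 to 0.890 in knock-in and 0.744 to 0.828 in wild-type forebrain at 4 weeks, and that of actin 0.934 to 1.06 against 1.09 to 1.15 at 11 weeks. Their part in the Neurod1, Cbln3 and Cbln1 values was not tested.

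**Figure D4:**
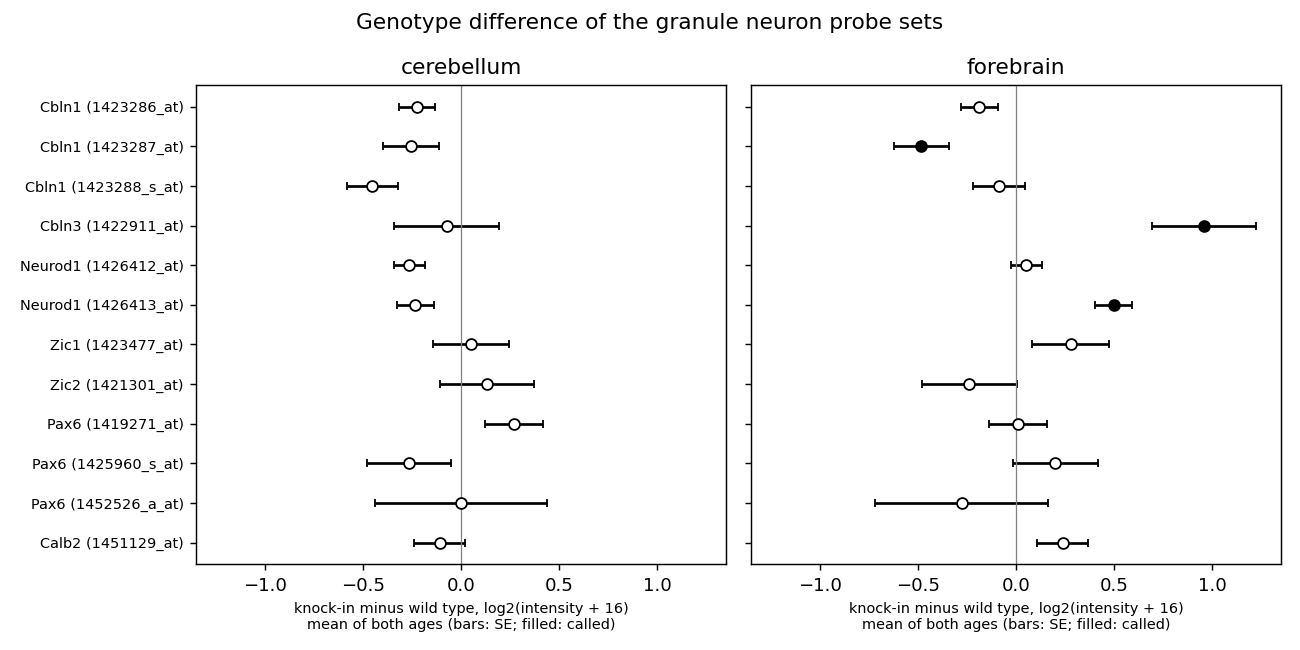
Difference between knock-in and wild type of the 12 tested granule neuron probe sets, in log2(intensity + 16), as the mean of both ages, in cerebellum (left) and forebrain (right); bars are standard errors of the model and filled points are called. No point is filled in cerebellum, and 3 are in forebrain: Cbln1 1423287_at at -0.48, Cbln3, below the filter limit there on all 10 arrays, at 0.96 and Neurod1 1426413_at at 0.50.

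The genotype difference itself was compared between regions, as cerebellum minus forebrain. Neurod1 probe set 1426413_at was the 1 member of 12 called, at -0.73 ± 0.13 (adjusted p = 0.0332, limma), against 0.282% of all probe sets tested. Its genotype difference was -0.23 ± 0.09 in cerebellum and 0.50 ± 0.09 in forebrain. The cerebellar value came from 4 weeks (-0.44), with -0.02 at 11 weeks. In the comparison of regions, the second Neurod1 probe set had -0.32 ± 0.11 (adjusted p = 0.365), Cbln3 had -1.03 ± 0.38 (adjusted p = 0.383) and Cbln1 1423287_at had 0.23 ± 0.20 (adjusted p = 0.835). The call rests on the settings, since the adjusted p was 0.081 with no filter on dim probe sets, 0.0643 after quantile normalization and 0.0815 with replicate numbers as a block.

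Age was compared within each genotype and region, as 11 weeks minus 4 weeks. No member was called in any of the 4 comparisons, in knock-in or wild-type cerebellum or in knock-in or wild-type forebrain, where 0.557%, 0.198%, 0.0640% and 0.00640% of all probe sets tested were called by limma. At an unadjusted p under 0.05 stood 0, 1, 2 and 0 of the 12. Differences ran from -0.63 to 0.38 in knock-in cerebellum and from -0.54 to 0.06 in wild-type cerebellum. The 3 Cbln1 probe sets had -0.28 ± 0.13, -0.41 ± 0.20 and -0.30 ± 0.19 in knock-in cerebellum (adjusted p = 0.395, 0.413 and 0.537, limma). The change of the genotype difference with age in cerebellum was called for 0 of the 12 (limma, 1 at an unadjusted p under 0.05), against 0.0256% of all probe sets tested.

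The other genes of the granule neuron programme were read from lists of receptors, transcription factors, precursor genes, cerebellin partners and further granule-enriched genes, with a gene read from its brightest kept probe set. Among receptors, channels and transporters, 5 of 7 listed genes were tested. All 5 were called higher in cerebellum in both genotypes, and 0 between genotypes in cerebellum by limma (0 at an unadjusted p under 0.05, median -0.16), while 2 were called lower in knock-in forebrain. Of 10 tested transcription factors of the granule and rhombic lip lineage, 6 were called higher in cerebellum among knock-in and 8 among wild-type mice, and 1 lower in each genotype. Between genotypes 1 of the 10, Nfib, was called higher in knock-in cerebellum and 3 higher in knock-in forebrain, with medians of 0.01 and 0.07. Of these 3, Nfia was below the limit on all forebrain arrays and Zic4 on all but 3. The call of Nfib, chosen for mention after its values were seen, came from 1427680_a_at (0.68 ± 0.17, adjusted p = 0.0397, limma) and its 3 other probe sets had 0.21, -0.16 and 0.11.

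Among 9 tested genes of precursors and immature granule cells, 4 were called higher and 2 lower in cerebellum in both genotypes, 0 between genotypes in cerebellum by limma (2 at an unadjusted p under 0.05, median -0.02) and 1 higher in knock-in forebrain, Gli1. All 6 further granule-enriched genes were higher in cerebellum in both genotypes, and 0 were called between genotypes in cerebellum by limma (0 at an unadjusted p under 0.05), at a median of 0.00. In forebrain 1 of these was called higher and 2 lower in knock-in mice, of which Mab21l1 was below the limit on all forebrain arrays. Of the 7 cerebellin family and partner genes only Grid1 was tested, lower in cerebellum in both genotypes. It was below the limit on all 10 cerebellar arrays, so its differences between genotypes there, 0.47 at 4 weeks and -1.51 at 11 weeks, neither called, were taken between values below the limit.

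Glial and other markers were counted the same way, beside the same shares over all probe sets tested. In cerebellum, limma called between genotypes 0 of 8 astrocyte and Bergmann glia genes (3 at an unadjusted p under 0.05), 0 of 5 oligodendrocyte genes (0), 0 of 7 microglia genes (1) and 0 of 3 choroid plexus genes (0). A dimmer probe set of the astrocyte list, Gja1 1438973_x_at, was called higher in knock-in cerebellum. It was above the limit on all 5 knock-in and all 5 wild-type arrays. The other Gja1 probe sets were not called, and the gene is named after its values were seen. Of 2 unipolar brush cell genes 1 was called lower, Plcb4, which Purkinje cells also make (1425339_at, -0.92 ± 0.22, adjusted p = 0.0364), named after its values were seen. Its other probe set, 1425338_at, was not called, and the second gene of the list had -0.04. Plcb4 1425339_at was called lower in knock-in forebrain too. The 5 probe sets of that list summed to 18650 to 23723 in knock-in and 19298 to 28963 in wild-type cerebellum at 4 weeks, and to 12972 to 19992 against 26430 to 27441 at 11 weeks. In forebrain, limma called 1 of 8 astrocyte genes, lower in knock-in mice, and 0 of 2 dentate granule neuron genes (0 at an unadjusted p under 0.05).

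Of the called probe sets of these lists and the marker lists, the 3 with the smallest p values in each region are given. In cerebellum, Kcnd2, a granule cell A-type potassium channel, was lower in knock-in cerebellum in 1422834_at (-0.56 ± 0.10, adjusted p = 0.00914, limma) and in 1450773_at (-0.41 ± 0.09, adjusted p = 0.0205), while its brightest probe set, 1422835_at, had -0.22 (adjusted p = 0.269). A probe set of the cyclin Ccnd2, 1448229_s_at, had -0.67 ± 0.14 (adjusted p = 0.0229) but was below the limit on all 10 cerebellar arrays, and its other 4 probe sets had -0.13 to 0.49 and were not called. In forebrain the smallest p values were those of Gabrd, the extrasynaptic GABA-A receptor subunit shared by cerebellar granule cells and forebrain neurons (-1.38 ± 0.09), Gli1, a target of hedgehog signalling that was below the limit on all 10 forebrain arrays (1.01 ± 0.12), and Gad1, an enzyme of GABA synthesis (-0.62 ± 0.09). Zic4, the next coding gene to Zic1, had 0.45 ± 0.09 in knock-in forebrain (1456417_at, adjusted p = 0.00571), above the limit there on 3 knock-in and 0 wild-type arrays, and -0.27 ± 0.34 in its other probe set, and is named after its values were seen.

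Over the 20 arrays, the probe sets of other genes most like each member reflect the split into regions, which the arrays share. Cbln1 was most like Car8 (Pearson r = 0.997) and Gdf10 (0.996), Neurod1 like Gdf10 (0.997) and Pcp2 (0.997), and Calb2 like Homer3 (0.996) and Pcp2 (0.996). Cbln3 was most like Homer3 (0.992) and Chd7 (0.991), and Zic1 like Slc1a6 (0.993) and Gdf10 (0.992). Pax6 was most like Mab21l1 (0.990) and Chd7 (0.988), and Zic2 like Crtam and Meis1 at 0.975 and 0.974. These neighbours include genes of Purkinje cells (Car8, Pcp2, Slc1a6) and Bergmann glia (Gdf10), so likeness over these arrays does not separate granule cells from the rest of the cerebellum.

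Within the 10 cerebellar arrays the nearest probe sets were others. The highest values were r = 0.961 for Calb2 with Snx6, 0.955 for Cbln1 with Tnfrsf19, 0.941 for Cbln3 with Peak1 and 0.940 for Neurod1 with Mmp16. Zic1 was nearest to Mphosph9 (0.926), Pax6 to Akr1a1 (0.924) and Zic2 to Krtcap2 (0.916). These arrays share genotype and age differences as well as the scaling, and each value is the highest among the 15627 probe sets tested, so they are a description alone.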

How the data were processed

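The deposited values are linear microarray intensities for each probe set. The authors had scaled the arrays to a common mean, since the 2% trimmed means, at 2500.59 to 2500.75, barely differed. The software is not given in the sources used here. Intensities were tested as log2(intensity + 16) with limma 3.58.1 in R 4.3.3 (lmFit and eBayes, data.table, version 1.17.8, for reading), with 1 mean per group over all 20 arrays, 12 residual and 3.45 prior degrees of freedom. The 64 control probe sets were left out and 15627 probe sets were kept at the 40th percentile on at least 2 arrays. Adjusted p-values are two-sided and adjusted by the Benjamini-Hochberg method over these, in each of 14 comparisons, and a probe set was called under 0.05. Differences on this scale understate the change of dim probe sets. Means over ages weight both ages equally. Errors of intensities are SDs and errors of differences are standard errors. The groups share the estimated spread of a probe set, so the standard error of a cerebellar difference includes the spread of forebrain arrays. This matters most for probe sets below the filter limit in forebrain. No pair of arrays shared over 50% of exact values, and correlations within groups were 0.963 to 0.979.

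In the probe annotation, 20380 probe sets carry 1 gene symbol, 691 carry several and 1555 carry none. The 8 genes, the 15 lists and the tests were chosen with earlier results of these data known. The text names every member probe set, Gabra6 and Pcp2, at most the 3 called list probe sets with the smallest p in a comparison, Nfib, Nfia, Plcb4, Zic4, Mab21l1, Gja1 and Grid1 outside this rule after their values were seen, and the 2 probe sets most correlated with each member over all and over the cerebellar arrays. The code was tested on simulated data. Figures were drawn with matplotlib 3.10.9.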

Additional observations from a re-analysis of the deposited data

Results flagged for a closer look

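The genotype difference of Neurod1 probe set 1426413_at differed between regions, at -0.73 ± 0.13 for cerebellum minus forebrain (adjusted p = 0.0332, limma). In the mean of both ages it was below 0 in cerebellum and above 0 in forebrain. In cerebellum it was -0.44 at 4 weeks but -0.02 at 11 weeks, where the genotypes overlapped. With arrays left out, the value at 11 weeks ran from -0.13 to 0.084. Leaving out 1 array at a time ended the call in 12 of 20 cases, with an adjusted p of 0.0501 to 0.099, and the direction was kept in all 20. The 12 were replicates 1 and 3 of knock-in cerebellum at 4 weeks, 2 and 3 of knock-in and of wild-type forebrain at 4 weeks, both of knock-in cerebellum and both of knock-in forebrain at 11 weeks, and replicate 1 of wild-type cerebellum and of wild-type forebrain at 11 weeks. The second probe set of the gene had -0.32 ± 0.11 and was not called.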

How the results depend on the processing

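The difference between regions kept its direction and its call for all tested probe sets under each alternative, with 11 of them left to test at the 60th percentile filter. The median log2 level of the 12 was 14.67 in cerebellum and 10.17 in forebrain and, after quantile normalization, 14.71 and 10.17. Over single probe sets, 1358 values kept direction and side of the threshold, 33 fell short of it, 4 passed it and 23 reversed. The count of calls in forebrain (mean of both ages) was 3 and fell to 1 with no filter on dim probe sets and with only the groups compared fitted. In forebrain at 4 weeks it was 1, and 0 with only the groups compared. In cerebellum (mean) it was 0, and 1, a Cbln1 probe set, with variance trend and robust moderation and with only the groups compared. The regional difference of the genotype effect had 1 call, and 0 with no filter, quantile normalization or the replicate block. The block changed no other count. With arrays left out 1 at a time, calls ranged from 0 to 2 in forebrain at 4 weeks, from 1 to 4 in forebrain in the mean, and from 0 to 1 in the regional difference of the genotype effect; the other counts did not move. In forebrain at 4 weeks Cbln3 was called without wild-type replicate 1 (1.29, adjusted p = 0.0442, limma).

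Reversed values were small or of dim probe sets, and the cause was not tested. In cerebellum (mean), Pax6 1452526_a_at had 0.00 and turned to -0.022 after quantile normalization and -0.16 after cyclic loess, and ran from -0.043 to 0.052 with arrays left out. In forebrain (mean), Pax6 1419271_at had 0.01 and turned to -0.16 and -0.053 under these settings, with -0.11 to 0.10 with arrays left out, and Pax6 1425960_s_at had 0.20 and turned to -0.25 after cyclic loess, with -0.025 to 0.43. Arrays left out also reversed, in forebrain (mean), Cbln1 1423288_s_at (-0.17 to 0.023) and Pax6 1452526_a_at (-0.86 to 0.31), in cerebellum (mean) Cbln3 (-0.17 to 0.023), at 4 weeks Cbln1 1423287_at (-0.21 to 0.055) and at 11 weeks Neurod1 1426413_at (-0.13 to 0.084). Deviations of same-numbered arrays were weakly correlated at most: r was -0.10 to 0.05 over 10 pairs between genotypes, and -0.02 to 0.11 between regions. In groups of 2 arrays the deviations mirror each other, so the pairs at 11 weeks repeat the same r and are not separate. Signal over background limits Cbln3, Zic2 and 2 Pax6 probe sets in forebrain, where all arrays lay below the filter limit.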
